A study of Homo sapiens with 4 samples.

Results

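Interleukins and colony-stimulating factors are secreted proteins through which cells instruct immune and blood-forming cells, and 10 of their genes were followed here in UM-UC-3, a cell line established from a human bladder carcinoma: IL1A, IL1B, IL6, IL11, IL18, IL24, LIF, CSF2, CSF3 and TNF. They were taken as every probe set whose platform annotation names exactly 1 of these genes. This gave 12 probe sets for 9 genes, of 54613 probe sets and 19775 named genes in the series. CSF2 was not analysed here. Stable transfectants carried either RhoGDI2, the product of ARHGDIB, fused to GFP, or GFP alone as the control, and both were sorted by their fluorescence. Each group had 2 arrays (Affymetrix HG-U133 Plus 2.0), from preparations A and B, which were made at different times and pair the groups. The labels call the replicates biological. They do not say whether each preparation had its own transfection, so differences that arose while either line was being made cannot be told apart from effects of RhoGDI2. The series title calls RhoGDI2 a metastasis suppressor and asks which genes it regulates. Cells were in log phase growth, and no cytokine or other stimulus is named in the labels.

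Values are log2 expression, made by the authors with RMA, which corrects background, normalizes arrays and summarises the probes of each probe set. Array medians lay between 4.624 and 4.647. A difference is GFP-RhoGDI2 minus GFP on the log2 scale, so that 1 unit is a doubling. Probe sets were tested when their mean over the 4 arrays reached 4.637, the median over all probe sets. This filter level is no detection limit: of 27 probe sets of genes restricted to tissues such as pancreas, liver and retina, 4 lay above it as well. The introduced gene was far higher in the transfected line, with 11.94 and 11.58 in GFP-RhoGDI2 cells against 6.51 and 6.27 in GFP cells for the brightest ARHGDIB probe set, a difference of 5.37. The other tested ARHGDIB probe sets differed by 0.94 (adjusted p = 0.00794) and by -0.02 with overlapping groups (adjusted p = 0.953). Of 14 epithelial and urothelial marker genes, 5 lay above the filter level, of which 1 rose (PPARG) and 2 fell (KRT8 and KRT18). Over all 12123 tested genes, 4.83% were higher and 3.35% lower. In GFP cells PPARG lay below the filter level, at 4.46 and 4.61. It thus passed the filter only through its GFP-RhoGDI2 values, and its place in the count depends on that. Whether these changes bear on the cytokine results was not tested. The keratin gene KRT18 stood at 12.99 and 13.03 in GFP-RhoGDI2 cells and 13.60 and 13.61 in GFP cells. The means of all 4 listed uroplakin genes, the defining genes of mature urothelium, lay below the filter level. UPK1A, named after its values were seen, read 4.95 and 4.55 in GFP-RhoGDI2 cells and 4.18 and 4.03 in GFP cells. In a fit with no filter it differed by 0.65 (limma adjusted p = 0.0388). UPK3A, UPK2 and UPK1B differed by -0.17, -0.04 and -0.03 with overlapping groups.

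The cytokines fall into families by receptor. The interleukin-1 family (IL1A, IL1B, IL18) signals through MyD88-dependent receptors, and IL-1β and IL-18 are made as inactive precursors that inflammasome caspases cut before release. The interleukin-6 family (IL6, IL11, LIF) shares the receptor chain gp130, encoded by IL6ST, and signals through JAK kinases and STAT3. TNF and interleukin-1 activate NF-κB, which in many epithelial cells induces IL6, CSF2, CSF3 and the chemokines of neutrophil recruitment. IL24 belongs to the interleukin-10 family, and CSF3 encodes the granulocyte growth factor G-CSF.

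IL18 was the member that changed. It rose 2.51-fold in the GFP-RhoGDI2 line, while the other tested members missed the threshold with differences of at most 0.30 on the log2 scale. Of the 12 member probe sets, 7 entered the test, covering 6 genes, and 1 of the 7 was called at an adjusted p under 0.05, against 7.64% of all 27307 probe sets tested. The 5 others, covering IL6, IL24 and TNF and a further probe set each of IL1A and IL1B, lay below the filter level. In 3 of the 7 tested the values of the groups did not overlap, a share near the 52.1% of all tested probe sets that showed this.

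**Figure D1:**
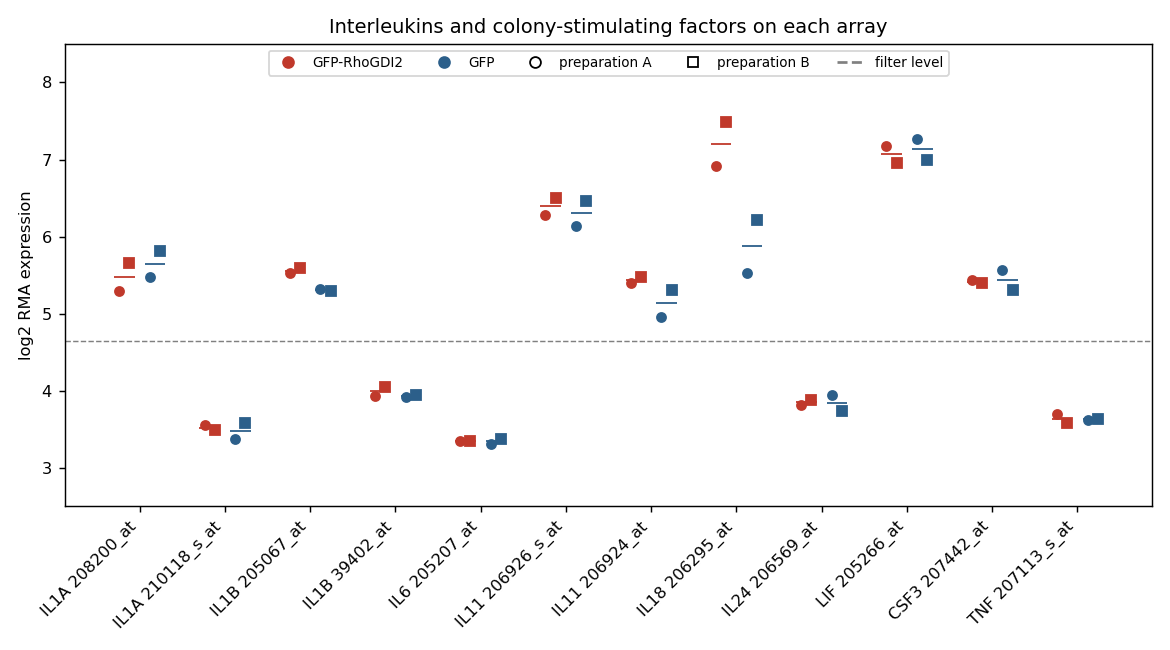
Log2 RMA expression (vertical axis) of the 12 member probe sets on each array. Red marks are GFP-RhoGDI2 and blue marks GFP, circles preparation A and squares preparation B, short lines the group means, and the dashed line the filter level of 4.637. IL18 is the member whose groups stand clearly apart; probe sets of IL6, IL24 and TNF lie below the dashed line in both groups.

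IL18 encodes a cytokine that epithelial cells store as a precursor and that drives interferon-γ production by T and NK cells. Its probe set read 6.92 and 7.49 in GFP-RhoGDI2 cells (preparations A and B) and 5.53 and 6.22 in GFP cells. Each GFP-RhoGDI2 array was above each GFP array, and the B preparation was higher than the A preparation in both lines. The difference was 1.39 within preparation A and 1.27 within preparation B. The means were 7.21 ± 0.41 in GFP-RhoGDI2 cells and 5.88 ± 0.48 in GFP cells (SD, n = 2), a log2 difference of 1.33 (SE 0.0946, 95% interval 1.10 to 1.56; limma adjusted p = 0.00221) or 2.51-fold (2.14 to 2.96). The SE rests on 1 residual degree of freedom and on a variance pooled over probe sets, so it owes more to that pool than to IL18 itself. The pairing matters here, because the SD within each group came mostly from the preparations: with no replicate block the same difference had an adjusted p of 0.0364. Leaving out 1 array, which also means leaving out the block, gave 1.04 without GFP-RhoGDI2 B (adjusted p = 0.153) and 0.99 without GFP A (adjusted p = 0.0671), calls that were lost, and 1.62 and 1.67 without GFP-RhoGDI2 A and GFP B (adjusted p = 0.0487 and 0.00776). Over all 11 alternatives the adjusted p ran between 1.04e-07 and 0.153. By size, IL18 ranked 101 among 12123 tested genes ordered from the largest rise down.

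The tested genes whose 4 values, each centred on their own mean, lay nearest to those of IL18 were SNTB1 (Euclidean distance 0.147), which encodes the membrane adaptor β1-syntrophin, NEURL1B (0.178), a ubiquitin ligase gene, and ZNF704 (0.187). SNTB1 read 7.06 and 7.73 in GFP-RhoGDI2 cells and 5.85 and 6.54 in GFP cells. Its similar step between the lines and its similar step between the preparations follow from this choice by distance. This likeness is over 4 arrays only.

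The other interleukin-1 genes did not pass the test. IL1A, whose product acts both in the nucleus and as an alarm signal from damaged cells, read 5.29 and 5.66 in GFP-RhoGDI2 cells against 5.47 and 5.81 in GFP cells. These groups overlap, and the difference was -0.16 (95% interval -0.39 to 0.06; adjusted p = 0.316). IL1B, which encodes the secreted and caspase-processed form, read 5.52 and 5.59 in GFP-RhoGDI2 cells and 5.32 and 5.29 in GFP cells. The groups did not overlap, by 0.20 in preparation A and 0.30 in preparation B, and the difference of 0.25 (95% interval 0.02 to 0.48) missed the threshold over all probe sets (limma adjusted p = 0.165). A further probe set of each gene lay below the filter level: for IL1A it differed by 0.04 and for IL1B by 0.06 in the fit with no filter, with overlapping groups. The IL1B value therefore rests on its brighter probe set alone. The 95% intervals allow a rise of IL1B of up to 1.40-fold and a rise of IL1A of up to 1.04-fold.

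In the interleukin-6 family, LIF and IL11 lay above the filter level and IL6 below it. LIF, encoding leukemia inhibitory factor, which sustains stem cells and acts on many epithelia, read 7.17 and 6.96 in GFP-RhoGDI2 cells and 7.26 and 7.0 in GFP cells. The groups overlap almost fully, and the difference was -0.06 (95% interval -0.29 to 0.16; adjusted p = 0.703), a range of 0.816 to 1.12-fold. IL11, a cytokine of fibrosis and platelet production, has 2 tested probe sets. The brighter read 6.28 and 6.50 in GFP-RhoGDI2 cells and 6.14 and 6.46 in GFP cells, with a difference of 0.09 (95% interval -0.15 to 0.32; adjusted p = 0.611). The dimmer read 5.39 and 5.48 in GFP-RhoGDI2 cells against 4.96 and 5.31 in GFP cells, groups that did not overlap, with a difference of 0.30 (95% interval 0.03 to 0.56; limma adjusted p = 0.150). The IL11 probe sets thus share a sign and neither passed.

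IL6, the acute-phase and B cell cytokine, read 3.35 and 3.35 in GFP-RhoGDI2 cells and 3.31 and 3.37 in GFP cells, below the filter level on every array. TNF, the founding member of the TNF superfamily, read 3.69 and 3.58 in GFP-RhoGDI2 cells and 3.62 and 3.63 in GFP cells. IL24, an interleukin-10 family gene first described in differentiating melanoma cells, read 3.81 and 3.88 in GFP-RhoGDI2 cells and 3.94 and 3.73 in GFP cells. In all 3 genes the groups overlap. In the fit with no filter their differences were each 0.01, with 95% intervals of -0.25 to 0.27 for IL6, -0.25 to 0.27 for TNF and -0.27 to 0.29 for IL24. A probe set near the low end of the scale reports little change even where the transcript changes, and no detection calls were used, so these intervals describe the measured signal and not the transcript. CSF3, the granulocyte growth factor gene, lay above the filter level at 5.43 and 5.40 in GFP-RhoGDI2 cells and 5.56 and 5.31 in GFP cells. Its groups overlap, and the difference was -0.02 (95% interval -0.27 to 0.23; adjusted p = 0.929).

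**Figure D2:**
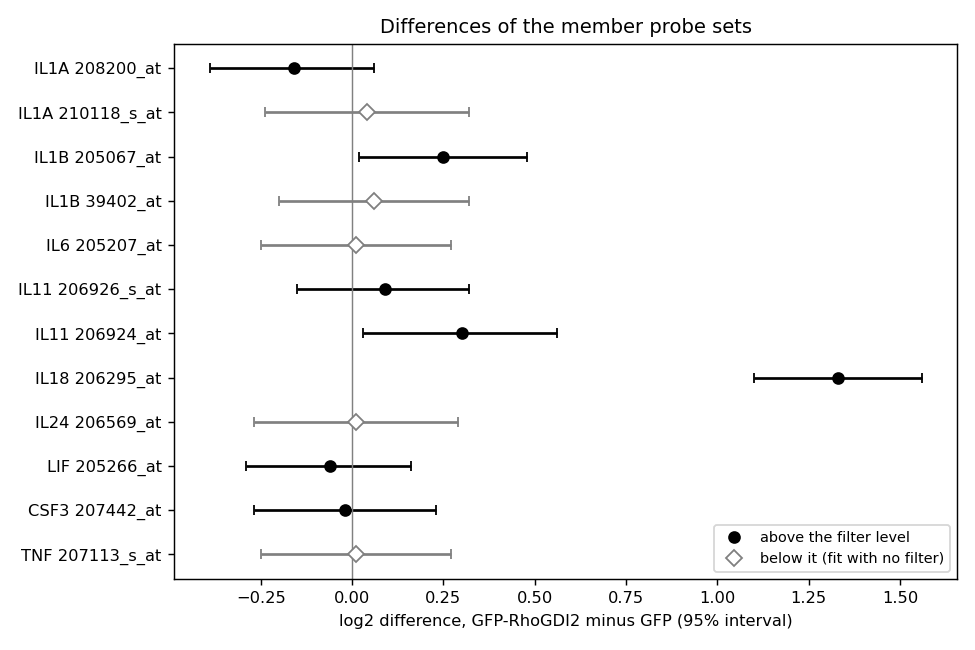
Log2 difference between GFP-RhoGDI2 and GFP (horizontal axis) with its 95% interval for each member probe set. Filled circles were above the filter level and tested with the preparation block; open diamonds lay below it and come from the fit with no filter. The interval of IL18, 1.10 to 1.56, stands apart from those of the other 11 probe sets, none of which reaches above 0.56.

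Several members differed more between the preparations than between the lines. This held, by size, in 4 of the 7 tested member probe sets and in 38.5% of all tested probe sets. The mean B minus A difference of these 4 was 0.35 for IL1A, 0.27 for the brighter IL11 probe set, -0.23 for LIF and -0.14 for CSF3. For IL18 it was 0.63, smaller than the difference of 1.33 between the lines. For IL1A the B minus A difference was 0.37 in GFP-RhoGDI2 cells and 0.34 in GFP cells, and for LIF it was -0.21 in GFP-RhoGDI2 cells and -0.26 in GFP cells. Both lines differed the same way between the preparations.

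Genes that respond to interleukin-1 and TNF were set beside the members. Of 14 tested response genes, 7 rose and 1 fell, with a median difference of 0.52, against 4.83% of all 12123 tested genes higher, 3.35% lower and a median of -0.013. CXCL1, a chemokine that attracts neutrophils, read 9.52 and 9.48 in GFP-RhoGDI2 cells and 5.80 and 6.04 in GFP cells. CXCL8, a neutrophil chemokine also named interleukin-8, read 9.39 and 10.19 in GFP-RhoGDI2 cells and 6.66 and 7.16 in GFP cells. The groups stand well apart in both genes, with differences of 3.58 and 2.88 (adjusted p = 1.64e-04 and 2.92e-04). VCAM1, a leukocyte adhesion molecule, rose by 2.48 and CXCL3 by 2.47. VCAM1 read 5.81 and 6.18 in GFP-RhoGDI2 cells and 3.44 and 3.58 in GFP cells. It thus passed the filter only through its GFP-RhoGDI2 values, and its place in the count depends on that. The NF-κB feedback genes of the same list did not pass, with TNFAIP3 at -0.27 (adjusted p = 0.141) and NFKBIA at -0.24 (adjusted p = 0.164), though both were called lower with an intensity trend (adjusted p = 0.0239 and 0.00741). ICAM1, another adhesion gene of this kind, differed by -0.14. The response gene that fell was TNFAIP2, named after its values were seen, with a difference of -0.61 (limma adjusted p = 0.0219). The list was assembled with earlier results of these arrays known, so its count is a description.

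The start regions of IL6 and CXCL8 are shown because both genes are textbook targets of NF-κB and of the same inflammatory stimuli, yet the CXCL8 signal rose while the IL6 signal stayed at the low end. Capitals mark the NF-κB core GGANTTTCC and the AP-1 site TGANTCA, searched on both strands; the marked motifs do not overlap, and the AP-1 letters read the same on both strands. The sequences are from RefSeq, build GRCh38.p14, 250 bases before to 50 after the start site. IL6 lies on the plus strand at chr7:22726950-22727249 and CXCL8 on the plus strand at chr4:73740319-73740618.
IL6: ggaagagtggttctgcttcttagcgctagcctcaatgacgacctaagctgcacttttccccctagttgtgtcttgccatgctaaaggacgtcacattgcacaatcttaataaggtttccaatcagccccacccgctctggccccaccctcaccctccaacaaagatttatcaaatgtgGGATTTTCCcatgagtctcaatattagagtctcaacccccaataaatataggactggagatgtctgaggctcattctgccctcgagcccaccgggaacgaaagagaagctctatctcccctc
CXCL8: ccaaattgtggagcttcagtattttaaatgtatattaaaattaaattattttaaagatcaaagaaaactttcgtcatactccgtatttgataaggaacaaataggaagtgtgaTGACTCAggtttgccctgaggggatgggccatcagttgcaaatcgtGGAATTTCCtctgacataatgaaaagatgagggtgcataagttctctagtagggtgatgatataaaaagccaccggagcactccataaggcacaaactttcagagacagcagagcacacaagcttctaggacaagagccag
Relative to the start site, the NF-κB core begins at -72 in IL6 and at -91 in CXCL8, where an AP-1 site begins at -137. Over all 35116 promoters of the table, 1.64% hold the NF-κB core and 7.71% the AP-1 site. CXCL1 and CXCL3 hold the core as well, each beginning at -78. The table has entries for 6 of the 9 measured members. Of these, IL1A holds 2 AP-1 sites, which lie in both of its overlapping start regions, and IL11 holds 1, and the searched letters are not in the windows of IL1B, IL24 and TNF. A match is a run of letters, bases outside these windows were not searched, and binding was not measured.

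Of 7 tested receptor genes of the interleukin-6 family, 2 rose and 1 fell, with a median of 0.14. This count and those of the lists below stand beside 4.83% of all 12123 tested genes higher and 3.35% lower. LIFR, which pairs with gp130 to receive LIF, read 7.0 and 7.23 in GFP-RhoGDI2 cells and 5.83 and 6.13 in GFP cells. The groups are well apart, and the rise was 1.13 (95% interval 0.90 to 1.36; adjusted p = 0.00347) or 2.19-fold, with a second tested probe set at 1.16. IL11RA, the interleukin-11 receptor α chain, read 6.33 and 6.47 in GFP-RhoGDI2 cells and 5.42 and 5.72 in GFP cells, a rise of 0.83 (limma adjusted p = 0.0108); a second, dimmer probe set below the filter level read 4.56 and 4.49 in GFP-RhoGDI2 cells and 4.58 and 4.49 in GFP cells. IL27RA, the interleukin-27 receptor, fell by 0.59, at 7.76 and 7.69 in GFP-RhoGDI2 cells against 8.34 and 8.29 in GFP cells (adjusted p = 0.0224). Of its 3 tested probe sets only this 1 was called. The others differed by -0.40 and 0.03 (limma adjusted p = 0.0746 and 0.88). The shared chain IL6ST was not called by any of its 5 tested probe sets, whose differences ran between -0.13 and 0.34. The oncostatin M receptor gene OSMR differed by 0.34 (adjusted p = 0.108) and was called with an intensity trend (adjusted p = 0.00574). LIFR and IL11RA thus rose by their brightest probe sets, while the shared chain IL6ST and the ligands LIF and IL11 were not called.

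Among receptors of the interleukin-1 family, 4 of 9 genes were tested and 1 rose, SIGIRR, with a median of 0.07. SIGIRR, an orphan receptor that dampens interleukin-1 and interleukin-18 signalling, read 5.76 and 5.62 in GFP-RhoGDI2 cells and 5.23 and 4.98 in GFP cells, a difference of 0.58 (limma adjusted p = 0.0256), and its dimmer probe set differed by 0.14 (adjusted p = 0.530). IL1RAP, the accessory chain of the interleukin-1 receptor, had tested probe sets of opposite sign, at -0.21 (adjusted p = 0.347) and 0.43 (adjusted p = 0.0491). IL18BP, the secreted decoy that neutralises interleukin-18, differed by 0.11 (adjusted p = 0.565), and the interleukin-18 receptor gene IL18R1 lay below the filter level in both lines. IL1R1, the signalling receptor of interleukin-1, was named after its values were seen, since its mean over 4 arrays lay below the filter level. It read 4.82 and 6.21 in GFP-RhoGDI2 cells and 3.23 and 3.36 in GFP cells. Its GFP-RhoGDI2 values lie above the filter level and its GFP values below it, with a difference of 2.22 in the fit with no filter (adjusted p = 0.00753) that was 1.58 in preparation A and 2.86 in preparation B. A second IL1R1 probe set was at 3.68 and 3.77 in GFP-RhoGDI2 cells and 3.11 and 3.50 in GFP cells. Of 9 receptor genes for TNF, interleukin-24 and the colony-stimulating factors, 2 were tested and 0 passed in limma; 1 had an unadjusted p under 0.05, and with an intensity trend TNFRSF1A was called (adjusted p = 0.00372). TNFRSF1A, the main TNF receptor, differed by -0.36 (adjusted p = 0.0885).

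Genes that process cytokines fell in 2 of 13 tested cases and rose in 0, with a median of -0.02, each gene by its brightest probe set. CASP4, a caspase that senses intracellular lipopolysaccharide and can cut the interleukin-18 precursor in human cells, read 8.53 and 8.39 in GFP-RhoGDI2 cells and 9.10 and 9.28 in GFP cells, a difference of -0.73 (adjusted p = 0.0227). Its second probe set fell as well, by 0.66 (adjusted p = 0.0271). NLRP3, the sensor of an inflammasome that activates caspase-1, read 6.49 and 6.86 in GFP-RhoGDI2 cells and 6.99 and 7.47 in GFP cells, a difference of -0.55 (limma adjusted p = 0.0292); its second tested probe set differed by -0.25 (adjusted p = 0.188). CASP1, which cuts the interleukin-1β and interleukin-18 precursors, had 3 tested probe sets of both signs (-0.25, 0.09 and 0.30), all with overlapping groups and none called. ADAM17, the protease that releases TNF from the cell surface, differed by 0.42 by its brightest probe set (adjusted p = 0.0544, or 0.00335 with an intensity trend), and of its other probe sets 1 missed the threshold at 0.31 and 1 rose by 0.45 (adjusted p = 0.0482). NLRP1 and CAPN2 of the same list were named after their values were seen. Both missed the threshold and were called with an intensity trend. NLRP1 differed by -0.57 (limma adjusted p = 0.0666, or 0.013 with the trend) and CAPN2 by 0.21 (0.216, or 0.00581). No tested probe set of either gene was called in the main test. The adaptor gene PYCARD lay below the filter level. IL18 therefore rose at the RNA level while CASP4 and NLRP3 fell; the protein and its cleavage were not measured.

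**Figure D3:**
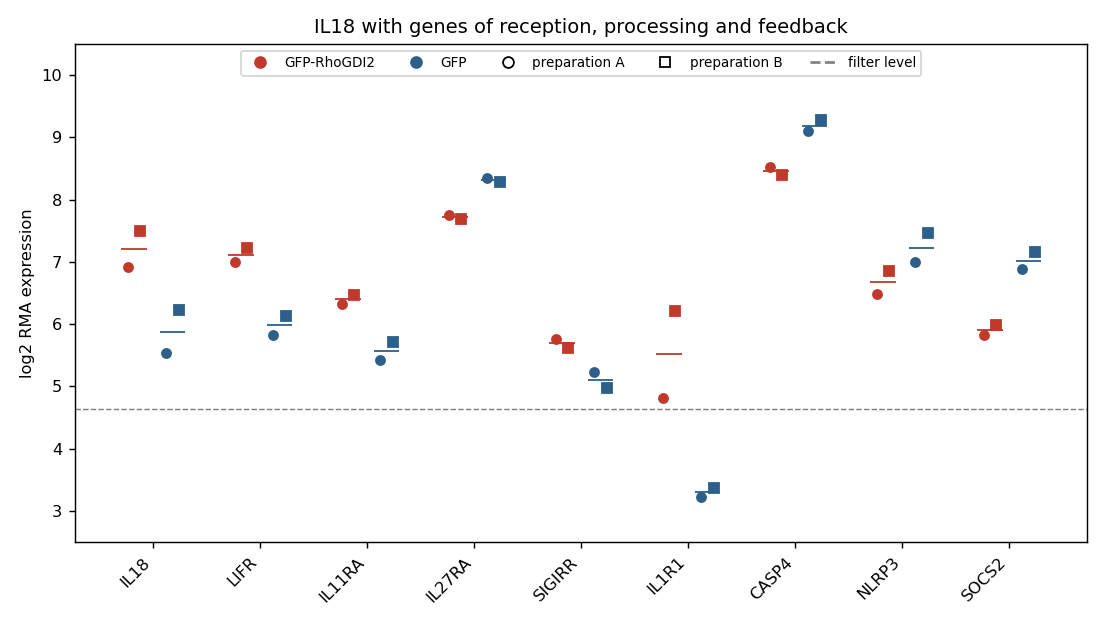
Log2 RMA expression (vertical axis) of IL18 and of genes of cytokine reception, processing and feedback, each by its brightest probe set, on each array, with marks as in the plot of the members. LIFR, IL11RA, SIGIRR and IL1R1 are higher and IL27RA, CASP4, NLRP3 and SOCS2 lower in GFP-RhoGDI2 cells. IL1R1 was below the filter level on average, so it did not enter the main test.

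Of 13 tested genes of JAK-STAT signalling and feedback, 1 fell and 0 rose, with a median of 0.14. The gene that fell was SOCS2, a feedback inhibitor best known for restraining growth hormone signalling, with 5.82 and 5.99 in GFP-RhoGDI2 cells and 6.88 and 7.16 in GFP cells, a difference of -1.12 (limma adjusted p = 0.00386). SOCS3, the feedback inhibitor induced by gp130 cytokines, differed by -0.06 with overlapping groups (adjusted p = 0.762), and STAT3 by 0.13. JAK1, a kinase bound to gp130, missed the threshold by its brightest probe set (0.49, adjusted p = 0.0791) and rose by both others that were tested (0.55 and 0.76, adjusted p = 0.0392 and 0.0175). Of 9 tested STAT3 response genes 0 passed in limma, with a median of -0.20 and the largest difference in FOS (-0.34, adjusted p = 0.0815); 2 had an unadjusted p under 0.05, and MYC was called with an intensity trend (adjusted p = 0.0418). Of 9 tested genes next to the interleukin-1 and TNF receptors 0 passed in limma, with a median of 0.09 and the largest difference in TAB3 (0.29, adjusted p = 0.157); 1 had an unadjusted p under 0.05, and an intensity trend brought IRAK1 and TAB3 past the threshold (adjusted p = 0.0088 and 0.0281). Cytokine RNAs are often governed by proteins that bind their AU-rich elements or other sites and by the RNA decay machinery, and 12 genes of this kind were tested. Of these 0 passed in limma, with a median of -0.11 and the largest difference in TIA1 (0.37, adjusted p = 0.0687); 4 had an unadjusted p under 0.05, and TIA1, TIAL1, RC3H1 and RC3H2 were called with an intensity trend. Of the 6 tested probe sets of TIA1, 1 was called (0.49, adjusted p = 0.0370). ZFP36, a decay factor that binds AU-rich elements, differed by -0.25 (adjusted p = 0.160).

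Related ligands that are not members were mostly below the filter level: 6 of 8 other interleukin-1 family genes, 10 of 12 measured TNF superfamily genes and all 5 interleukin-10 family genes. CSF1, the macrophage growth factor, was the called ligand among them, at 7.72 and 8.04 in GFP-RhoGDI2 cells and 7.34 and 7.47 in GFP cells, a difference of 0.47 (limma adjusted p = 0.0488). Of its 4 tested probe sets only this 1 was called. The others differed by 0.25, 0.64 and 0.06 (limma adjusted p = 0.161, 0.0803 and 0.719). KITLG, the stem cell factor gene, differed by the same 0.47 and missed the threshold by its brightest probe set (adjusted p = 0.0717), while both other tested probe sets rose, by 0.98 and 1.04 (adjusted p = 0.00591 and 0.0330). The largest differences in the families with no call were 0.03 for IL37, 0.28 for IL27 and 0.19 for TNFSF9. Over the 14 surrounding lists, 11 of 93 tested genes rose and 5 fell, and 7 of the 11 were the response genes. The called share was 17.2%, against 8.17% of all 12123 tested genes. Most lists hold few tested genes, and they were chosen with earlier results known, so these counts are descriptions.

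These calls differ in how far they rest on the pairing and on single arrays. Without the block the calls of CSF1 (limma adjusted p = 0.108), SIGIRR (0.0516) and NLRP3 (0.159) were lost. That of TNFAIP2 was only just kept (limma adjusted p = 0.0497). Leaving out each array in turn, without the block, SOCS2, CXCL1, CXCL8, VCAM1 and CXCL3 were called every time and LIFR in 3 of 4 fits, the exception being that without GFP-RhoGDI2 B (adjusted p = 0.0549). IL11RA was called without GFP B alone, and CASP4 and TNFAIP2 without GFP A alone. The difference of TNFAIP2 ran between -0.73 without GFP A and -0.48 without GFP B. CSF1, SIGIRR, IL27RA and NLRP3 were called in 0 of these limma fits. The groups of these genes did not overlap, so leaving out an array could not reverse the sign of their differences.

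**Figure D4:**
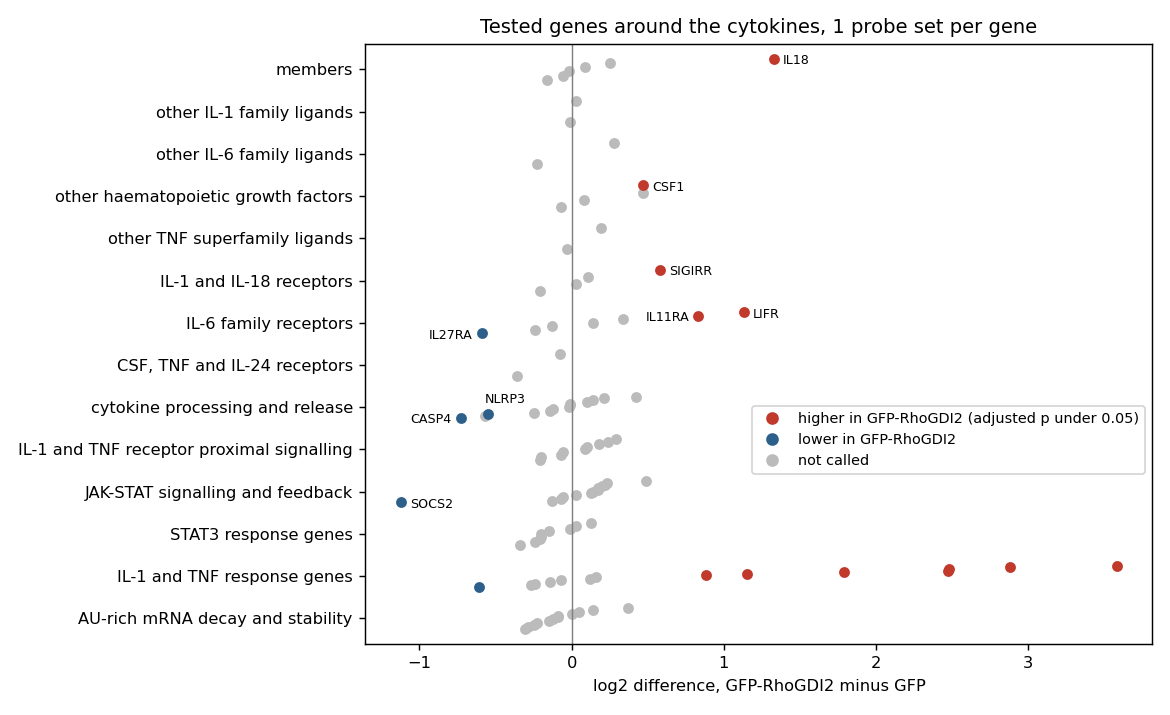
Log2 difference between GFP-RhoGDI2 and GFP (horizontal axis) of every tested gene of the members and the surrounding lists, 1 probe set per gene. Red genes were higher and blue genes lower at an adjusted p under 0.05, and grey genes were not called. The largest rises are in the interleukin-1 and TNF response, up to 3.58 for CXCL1, while TNFAIP2 of the same list was lower at -0.61. IL18 is the called member at 1.33.

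Of 11 measured macrophage markers 1 lay above the filter level, and the mean over their 18 probe sets was 3.85 and 3.78 in GFP-RhoGDI2 cells and 3.78 and 3.81 in GFP cells. Of 14 measured lymphoid and blood cell markers 4 lay above it, with means over 31 probe sets of 3.82 and 3.79 in GFP-RhoGDI2 cells and 3.84 and 3.82 in GFP cells. In both lists 0 genes were called in limma and 0 had an unadjusted p under 0.05. In bulk RNA, fewer cells with a transcript and less of it per cell cannot be told apart.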

How the data were processed

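Expression was measured on 4 arrays, 2 for GFP-RhoGDI2 and 2 for GFP cells. The authors deposited log2 values from RMA, as the submitters' processing notes name it. The labels give neither the software nor the set of arrays that were normalized jointly. Groups come from the titles; for GFP-RhoGDI2 samples the description field speaks of the control transfection, against the other fields. Of 54675 probe sets, 62 controls were left out; the annotation named 1 gene for 41091, several for 1801 and did not list 11721. Probe sets with several genes stayed unnamed, and symbols were updated by gene identifier.

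Probe sets with a mean at or above 4.637 were fitted with limma 3.58.1 in R 4.3.3 (lmFit, eBayes), with preparation as a block because the labels state the pairing, and Benjamini-Hochberg adjustment over all 27307 tested. The B minus A differences of the groups correlated at r = 0.264 across tested probe sets. The fit had 1 residual degree of freedom and 4.71 prior ones. Each gene was represented by its brightest probe set. The number of arrays limits the precision. The fit was tested on simulated data. The members and lists were chosen with earlier results of these data known. Named genes are all members, ARHGDIB, up to 4 called genes per list or its largest difference where none was called, and the 3 genes nearest to the called member; TNFAIP3, NFKBIA, ICAM1, IL6ST, OSMR, IL18BP, IL18R1, IL1R1, CASP1, ADAM17, PYCARD, SOCS3, STAT3, MYC, IRAK1, IL1RAP, JAK1, TIAL1, RC3H1, RC3H2, ZFP36, KITLG, PPARG, KRT8 and KRT18 were added after their values were seen.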

Additional observations from a re-analysis of the deposited data

How the results depend on the processing

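The rise of IL18 lay between 0.99 and 1.67 in the 11 alternatives that could test it. Each GFP-RhoGDI2 value lay above each GFP value, so leaving out an array or the block could not reverse its sign. Its call was kept in 9 of the alternatives, the exceptions being the fits without GFP-RhoGDI2 B and without GFP A. Above the upper quartile of mean values 1 member probe set was left (LIF) and 0 were called in limma. Leaving out single arrays, without the block, gave 0 to 1 member probe sets called, 6 to 11 list genes (16 with all arrays) and 422 to 909 probe sets over all (2085 with all arrays), with 498 without GFP-RhoGDI2 A and 770 without GFP A. In these fits the uncalled differences changed sign within -0.35 to 0.02 for IL1A, -0.07 to 0.24 for the brighter IL11 probe set (-0.02 without GFP-RhoGDI2 B), -0.19 to 0.06 for LIF (0.04 without GFP-RhoGDI2 B) and -0.14 to 0.11 for CSF3. Over all, with no replicate block 1284 probe sets were called, above the upper quartile 3435 (of fewer tested), with an intensity trend 5721, with arrays centred on their medians 3395, without identifiers ending in _s_at or _x_at 1340 (of fewer tested), at an adjusted p under 0.01 447 and with a 2-fold minimum 379. List genes called numbered 33 with an intensity trend, 10 without those identifiers, and 8 at either stricter threshold. The cause of the differences between moderation and centring settings was not tested. With 2 arrays a group and no detection calls, low probe sets such as those of IL6, IL24 and TNF limit what can be said of these genes.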

Other observations

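Of the 10 tested genes on each side of IL18 along the chromosome, 2 were higher and 0 lower in GFP-RhoGDI2 cells. Their median difference was 0.04 over the 20. Over all 12123 tested genes, 4.83% were higher and 3.35% lower, and a count this small over 20 genes is a description. The higher genes were DIXDC1, a regulator of Wnt signalling, with a difference of 2.45 (limma adjusted p = 4.01e-04), and LINC02762, a long non-coding RNA gene, with 0.90 (adjusted p = 0.0224); both were named after their values were seen. SDHD and PTS, the nearest tested genes on either side, differed by 0.01 and 0.12.

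The antisense genes of LIF and IL6 have probe sets of their own. LIF-AS2 read 5.02 and 5.09 in GFP-RhoGDI2 cells and 4.83 and 4.81 in GFP cells, with a difference of 0.23 (limma adjusted p = 0.184). IL6-AS1 lay below the filter level, at 4.15 and 4.22 in GFP-RhoGDI2 cells and 4.19 and 4.26 in GFP cells.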
